A study of Mus musculus with 12 samples.

Results

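The glycolysis and hypoxia genes are a set of 37 mouse genes that encode the hypoxia-inducible factor (HIF) alpha subunits, glucose and lactate transporters, glycolytic enzymes and known HIF targets, and they were found by their gene symbols in the count files. The files list 35976 genes, of which 18853 passed a filter on low counts, and all 37 genes passed it. RNA-seq was performed on back skin scars of male mice 8 to 12 weeks old, with 3 scars in each of 4 groups. Every mouse received a 1.5 cm split wound, and 6 days later a plastic device was placed on the scar. In the traction groups the device was lengthened by 1 mm per day to a total of 8 mm, whereas in the sham groups it was left unstretched. The groups were Tem1WT/WT sham (labelled WTSH, here WT sham), Tem1WT/WT with traction (WTTR, WT traction), Tem1lacZ/lacZ sham (lacZSH, lacZ sham) and Tem1lacZ/lacZ with traction (lacZTR, lacZ traction). Tem1lacZ/lacZ mice carry a lacZ reporter in place of the coding exon of Tem1 (listed as Cd248), so they lack the gene in every cell and throughout life, and the line was backcrossed to C57BL/6J for 10 generations. A group without a wound or without a device was not analysed here, so the values describe stretching of a wounded scar in each genotype.

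HIF is a transcription factor made of an oxygen-regulated alpha subunit (Hif1a or Epas1) and a constant partner, Arnt. When oxygen is plentiful, prolyl hydroxylases (Egln1, Egln3) mark the alpha protein for destruction through Vhl, so HIF activity is set largely at the protein level and not by the amount of Hif1a mRNA. When oxygen falls, HIF binds short DNA motifs near genes that take up glucose, break it down to pyruvate, turn pyruvate into lactate and export the lactate, and glycolysis is also raised without low oxygen in dividing, migrating or activated cells of healing skin.

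HIF binds the letters ACGTG or GCGTG, and both were searched on each strand of RefSeq promoter entries. The promoters printed below are windows of at most 250 bases before the transcription start. In such windows Hk1, Gpi1, Aldoc, Tpi1, Eno2, Pfkfb4, Car9 and Kdm3a held no match, nor did the window that was available for Pkm. The shares of genes that follow were therefore not counted on these windows, and the stretch they cover is not stated here. A promoter entry was given for 33 of the 37 genes (none for Epas1, Slc2a3, Ndrg1 or Bnip3l), and 30 of the 33 (90.9%) held at least 1 match, against 54.9% of the 13697 tested genes with an entry. Many of the genes are known HIF targets, so this share describes the list. At least 2 matches were found for 20 of the 33 genes (60.6%), against 27.1% of the tested genes. They were found for 7 of the 8 genes with an entry that passed the test, and for 13 of the 25 others. This difference was not tested. Promoters are shown for 3 genes that rose with traction in WT scars (Pgam1, Slc16a3 and Ankrd37) and for 2 textbook HIF targets that did not pass the test (Ldha and Pdk1), because matches stood in both kinds. All are 5′ to 3′ on the strand of the gene, from RefSeq on GRCm38.p6, with exon bases left out and with capitals marking the motif, which reads CACGT or CACGC where it lies on the other strand.
Pgam1 (chr19:41911621-41911870, plus strand): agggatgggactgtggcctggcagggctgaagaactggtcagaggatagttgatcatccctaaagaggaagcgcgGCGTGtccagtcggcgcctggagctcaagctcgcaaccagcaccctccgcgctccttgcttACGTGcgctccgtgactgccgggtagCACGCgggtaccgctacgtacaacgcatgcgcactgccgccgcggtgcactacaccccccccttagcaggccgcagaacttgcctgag
Slc16a3 (chr11:120948817-120949052, plus strand): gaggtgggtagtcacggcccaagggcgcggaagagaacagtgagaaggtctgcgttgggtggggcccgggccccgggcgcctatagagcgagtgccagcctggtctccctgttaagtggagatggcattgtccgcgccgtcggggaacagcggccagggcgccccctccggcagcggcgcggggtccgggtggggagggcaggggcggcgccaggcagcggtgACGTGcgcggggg
Ankrd37 (chr8:45999868-46000100, minus strand): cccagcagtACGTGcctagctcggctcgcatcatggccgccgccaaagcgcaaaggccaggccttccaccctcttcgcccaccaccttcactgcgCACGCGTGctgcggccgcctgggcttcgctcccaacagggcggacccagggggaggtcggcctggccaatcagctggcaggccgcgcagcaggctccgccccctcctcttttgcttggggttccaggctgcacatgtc
Ldha (chr7:46845554-46845803, plus strand): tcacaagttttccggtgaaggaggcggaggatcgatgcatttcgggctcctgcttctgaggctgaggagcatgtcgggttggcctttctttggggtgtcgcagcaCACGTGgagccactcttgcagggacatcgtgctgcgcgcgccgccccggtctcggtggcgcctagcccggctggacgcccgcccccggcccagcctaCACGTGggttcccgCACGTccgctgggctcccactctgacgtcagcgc
Pdk1 (chr2:71872974-71873223, plus strand): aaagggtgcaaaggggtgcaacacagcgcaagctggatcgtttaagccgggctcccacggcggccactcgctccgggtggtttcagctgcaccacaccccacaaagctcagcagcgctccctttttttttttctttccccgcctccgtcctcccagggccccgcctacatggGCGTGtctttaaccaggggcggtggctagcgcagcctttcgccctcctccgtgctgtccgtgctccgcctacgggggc
The Ldha window held 5 matches, the Pgam1 and Ankrd37 windows 3 each, and the Slc16a3 and Pdk1 windows 1 each. Matches on both strands overlap as CACGTG at 2 places in Ldha and as CACGCGTG in Ankrd37. A match is a stretch of letters and no binding was measured.

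The libraries held between 41536788 and 64644293 counts. Cd248 had at least 3883 counts in each Tem1WT/WT library and at most 13 in each Tem1lacZ/lacZ library, as the genotype labels say, and markers of fibroblasts and epidermal keratinocytes were abundant in all 12 scars. WT traction replicate 1 stood apart. It was the highest of the 12 libraries for 29 of the 37 genes, and its summed level of 15 neutrophil markers was 8892 CPM (counts scaled to the library size), against 508 and 876 in the other WT traction scars, 97.2 to 143 in WT sham, 217 to 255 in lacZ sham and 336 to 591 in lacZ traction. Of these markers, 12 passed the filter and 8 rose with traction in WT scars (3 without replicate 1), while Ly6g, a defining marker, was at 0 in every WT sham library and 3.76 CPM in WT traction replicate 1. Of all genes tested, 5.61% rose with traction in WT scars, and 1.86% rose or fell without WT traction replicate 1. Values without that library are therefore given beside many results, and the part of neutrophils was not tested. In a bulk library, more cells of a type and more RNA per cell cannot be told apart.

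Traction in WT scars came with higher levels of genes for both HIF alpha subunits, both glucose transporters, 3 glycolytic enzymes, the lactate exporter Slc16a3 and 3 other HIF targets. With edgeR's quasi-likelihood test and Benjamini-Hochberg adjustment over all genes tested, 11 of the 37 genes passed an adjusted p of 0.05 and all 11 rose. Among all genes tested 9.15% passed, 5.61% as higher and 3.54% as lower. Higher levels with traction were estimated for 33 of the 37 genes, against 49.4% of all genes tested, and the median log2 fold change was 0.80, against -0.01 over all genes. In 19 genes every traction library lay above every sham library, where 17.7% of all genes tested did so, and in no gene did every traction library lie below, where 18% did so. At an unadjusted p under 0.05, 22 genes were higher and 1 (Pfkm) was lower, where 31.4% of all genes tested had such a p (16.7% higher and 14.7% lower). With other methods the number that passed was 11 with DESeq2 size factors (9.58% of all genes), 8 with upper quartile scaling (8.87%), 8 with limma-voom (3.97%) and 16 with DESeq2 (15 higher and Pfkm lower, 21.5%). The number that passed moved with the libraries included. It was 3 (Slc2a3, Pgam1 and Slc16a3) without WT traction replicate 1, where 1.86% of all genes passed, and 0 without WT sham replicate 1 or without WT sham replicate 2, where no gene of the whole table passed. It was 2 without lacZ sham replicate 3 (0.873% of all genes) and 4 without WT sham replicate 3 (4.22%, Pfkm among them as lower). It was 7 and 6 without lacZ sham replicates 1 and 2 (5.79% and 5.31%), and 7 and 6 without lacZ traction replicates 2 and 3 (5.45% and 4.97%). It was 14 and 8 without WT traction replicates 2 and 3 (14.7% and 3.62%), and 13 without lacZ traction replicate 1 (10.9%).

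**Figure D1:**
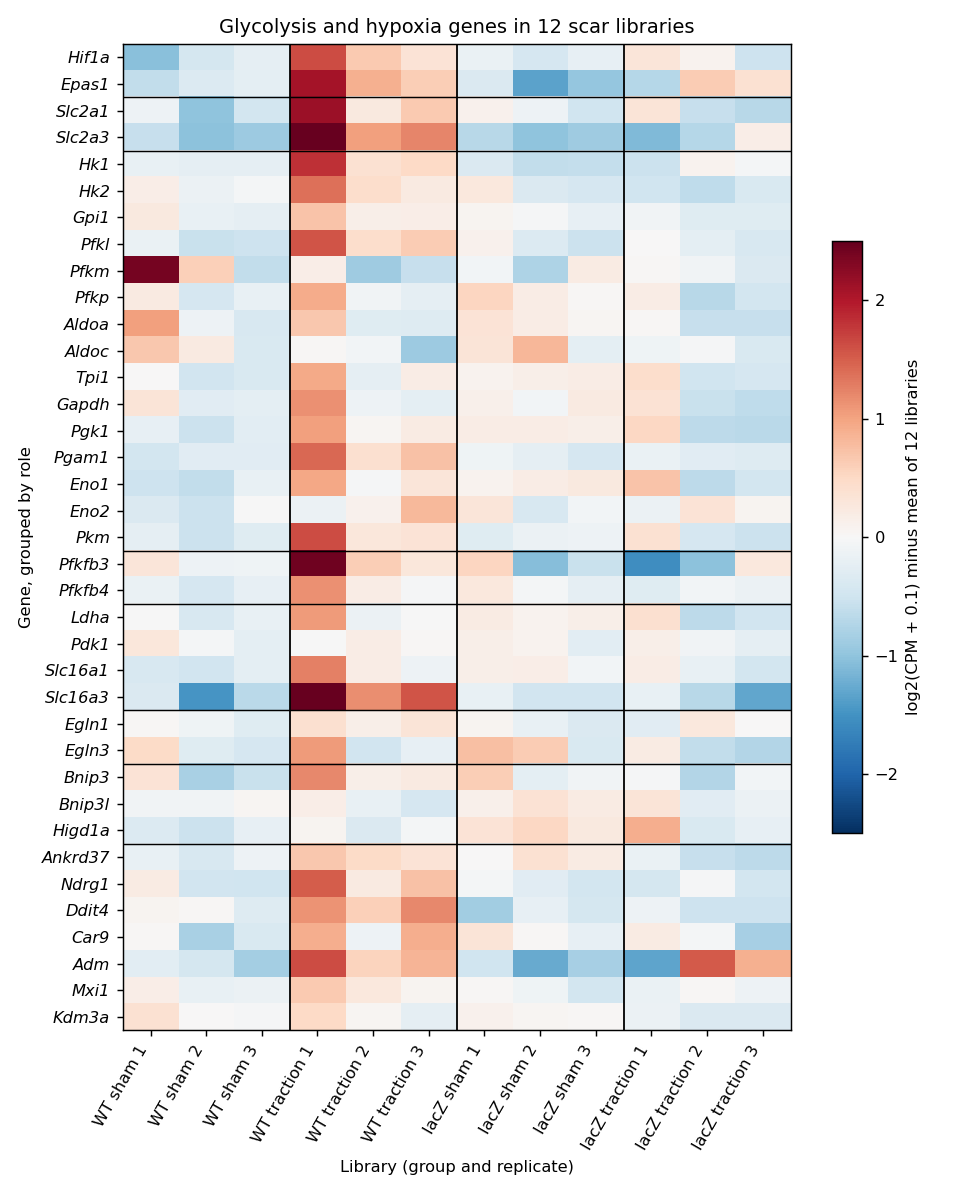
Each row is a gene, grouped by role, and each column a library. The colour gives log2(CPM + 0.1) minus the gene's mean over the 12 libraries, from blue (lower) to red (higher), limited to 2.5 in either direction. WT traction replicate 1 is the highest of the 12 libraries for 29 of 37 genes, while Pfkm and Aldoa are highest in WT sham replicate 1.

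Hif1a, the oxygen-regulated subunit found in most cells, was at 167, 254 and 297 CPM in WT sham replicates 1 to 3 and at 1065, 544 and 441 CPM in WT traction. All WT traction scars lay above all other scars, since lacZ sham ranged from 259 to 309 CPM and lacZ traction from 243 to 428 CPM. The log2 fold change with traction in WT was 1.51 ± 0.34 (SE, n = 3 scars a group, edgeR adjusted p = 0.0329). Without WT traction replicate 1 it was 1.03 (edgeR adjusted p = 0.0619). Hif1a (chr 12, 73901375 to 73947530, plus strand of GRCm38) shares 330 exon bases with Gm15283, an antisense gene, and 148 with Gm49321 on its own strand, and because the strand setting of the counting was not given in the sources used here, reads of these genes could be included.

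Epas1 encodes HIF-2 alpha, which is prominent in endothelial cells. It measured 73.7, 88.6 and 95.2 CPM in WT sham and 481, 209 and 173 CPM in WT traction, with no overlap. Epas1 rose by a log2 fold change of 1.75 ± 0.44 (SE, n = 3 a group, edgeR adjusted p = 0.0391), and the value was 1.14 (edgeR adjusted p = 0.0923) without WT traction replicate 1. Endothelial markers moved with it. Their summed level over 13 markers was 489 to 696 CPM in WT sham and 1280 to 1491 CPM in WT traction. Of the 13 markers 10 rose, where 5.61% of all genes tested did so. Without WT traction replicate 1, 4 of them rose, where 1.86% of all genes rose or fell. The part of these markers in the Epas1 result was not tested. Per kilobase of exon, Hif1a stood above Epas1 in each of the 12 libraries, with a share of the pair of 72.0% ± 3.38 (SD, n = 3) in WT sham and 69.9% ± 1.85 in WT traction.

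Slc2a3, a high-affinity glucose transporter (GLUT3) of neurons and leukocytes, had the largest estimated change of the 37 genes with all libraries, and Slc16a3 and Pfkm exceeded it without WT traction replicate 1. It was at 6.73, 4.93 and 5.34 CPM in WT sham and at 231, 20.6 and 23.7 CPM in WT traction. The first WT traction scar was 10.4 times the mean of replicates 2 and 3, yet these also lay above every sham library and above the lacZ traction scars, which had 4.61, 6.10 and 11.3 CPM. The log2 fold change of 4.02 ± 0.85 (SE, n = 3 a group, edgeR adjusted p = 0.0311) was 1.95 ± 0.33 without WT traction replicate 1 (edgeR adjusted p = 0.0384). DESeq2, run as an alternative, gave no p for Slc2a3 in any comparison. The gene lies on chr 6, 122727809 to 122801640, minus strand.

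Slc2a1 (GLUT1), the glucose transporter of most dividing and stressed cells, was at 104, 56.2 and 81.8 CPM in WT sham and at 496, 134 and 177 CPM in WT traction. The groups did not overlap, and the 2 lacZ groups ranged from 69.3 to 140 CPM. A log2 fold change of 1.74 ± 0.47 was measured (SE, n = 3 a group, edgeR adjusted p = 0.0468), and of 0.93 (edgeR adjusted p = 0.109) without WT traction replicate 1. Per kilobase of exon Slc2a1 remained the main transporter of the pair. The share of Slc2a3 was 3.39% ± 0.587 (SD, n = 3) in WT sham, and 18.4%, 6.94% and 6.09% in WT traction replicates 1 to 3.

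Of the 15 glycolytic enzymes, 3 rose with traction in WT scars (Hk1, Pfkl and Pgam1) and 12 did not pass the test. Pgam1, phosphoglycerate mutase (chr 19, 41911923 to 41918660, plus strand), was at 87.1, 98.8 and 98.1 CPM in WT sham and at 324, 157 and 200 CPM in WT traction. All 9 scars outside the WT traction group lay between 87.1 and 111 CPM, below the lowest WT traction scar. Pgam1 rose by a log2 fold change of 1.26 ± 0.23 (SE, n = 3 a group, edgeR adjusted p = 0.0252), and by 0.89 ± 0.15 without WT traction replicate 1 (edgeR adjusted p = 0.0384). A near-identical copy, Pgam1-ps2, has no line of its own in the files, so reads of this copy cannot be separated.

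Pfkl, the liver-type phosphofructokinase of the first committed step, was at 87.4, 67.0 and 68.6 CPM in WT sham and at 295, 134 and 152 CPM in WT traction. Every WT traction scar lay above the other 9 scars, whose highest value was 106 CPM. Its log2 fold change was 1.38 ± 0.29 (SE, n = 3 a group, edgeR adjusted p = 0.0308), and 0.93 (edgeR adjusted p = 0.0504) without WT traction replicate 1. Hk1, the hexokinase that traps glucose in many tissues, was at 72.8, 70.4 and 70.2 CPM in WT sham and at 294, 107 and 117 CPM in WT traction. The sham scars hardly differed, and the traction scars all lay above them. The log2 fold change of Hk1 was 1.28 ± 0.33 (SE, n = 3 a group, edgeR adjusted p = 0.0423), and 0.63 (edgeR adjusted p = 0.0727) without WT traction replicate 1.

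Pfkm, the muscle-type phosphofructokinase, showed the opposite direction without passing the test. It measured 328, 93.6 and 40.5 CPM in WT sham and 69.4, 33.3 and 41.6 CPM in WT traction, so the groups overlapped and WT sham replicate 1 set the difference. On the log2 scale its difference was -1.68 ± 0.61 (SE, n = 3 a group, edgeR adjusted p = 0.0931), and -0.49 (edgeR adjusted p = 0.510) without WT sham replicate 1. With edgeR it passed as lower without WT sham replicate 3 (-2.11, edgeR adjusted p = 0.0434), and DESeq2 called it lower with all 12 libraries (-1.65, adjusted p = 0.0290). Skeletal muscle markers moved with it. The summed level of 16 markers was 18162, 4874 and 1789 CPM in WT sham replicates 1 to 3, in the same order as Pfkm, and 443 to 2755 CPM in WT traction. All 16 were estimated lower with traction, of which 1 passed the test, where 3.54% of all genes tested passed as lower. The part of these markers in the Pfkm result was not tested.

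The make-up of the phosphofructokinases differed with these changes. Per kilobase of exon, Pfkl was 10.2%, 20.5% and 29.2% of the 3 isozymes in WT sham and 47.8%, 46.0% and 47.9% in WT traction. The lacZ sham scars were at 22.0% to 29.7%, overlapping with WT sham, and the lacZ traction scars at 29.4% to 32.2%. The WT traction range did not overlap with any other group and did not depend on replicate 1, whereas the WT sham range followed Pfkm and the muscle markers. With 3 scars against 3, a two-sided exact permutation test cannot give a p below 0.10, so the shares are given as values.

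**Figure D2:**
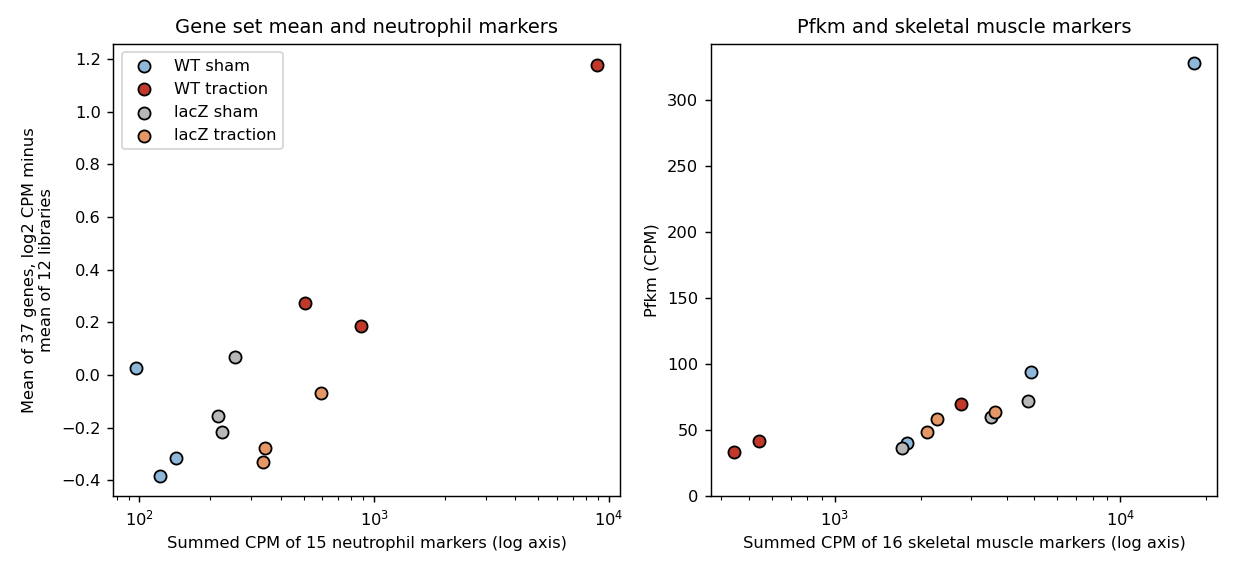
On the left, the mean of the 37 genes in each library (log2 CPM minus the mean of 12 libraries) is plotted against the summed CPM of 15 neutrophil markers on a log axis, and WT traction replicate 1 lies alone at 8892 CPM. On the right, Pfkm in CPM is plotted against the summed CPM of 16 skeletal muscle markers on a log axis, with WT sham replicate 1 at 328 and 18162 CPM.

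The other 11 enzymes did not pass the test in WT traction. Log2 fold changes were 1.24 for Pkm (pyruvate kinase, edgeR adjusted p = 0.0556), 0.90 for Eno1 and 0.62 for Eno2 (enolases), 0.78 for Hk2, 0.66 for Tpi1 (triosephosphate isomerase), 0.46 for Gapdh, 0.41 for Gpi1, 0.40 for Pfkp, -0.21 for Aldoa and -0.50 for Aldoc (aldolases). When WT traction replicate 1 was left out these were 0.64 for Pkm, 0.55 for Eno1, 0.79 for Eno2, 0.33 for Hk2, 0.25 for Tpi1, -0.15 for Gapdh, 0.19 for Gpi1, -0.07 for Pfkp, -0.63 for Aldoa and -0.68 for Aldoc, so Gapdh and Pfkp turned direction. Pgk1, phosphoglycerate kinase and a textbook HIF target, was at 383, 305 and 367 CPM in WT sham and at 898, 456 and 507 CPM in WT traction. The groups did not overlap, but the log2 fold change of 0.82 ± 0.34 (SE, n = 3 a group) had an edgeR adjusted p of 0.127, and was 0.43 without WT traction replicate 1. For 10 of the 37 genes the genome holds copies that match at least 300 bases at 95% identity or more, 76 of them for Gapdh, and how reads that match several places were counted was not given in the sources used here. Of the glycolysis regulators, Pfkfb3 and Pfkfb4, which make the activator of phosphofructokinase, had log2 fold changes of 1.40 (edgeR adjusted p = 0.158) and 0.80 (edgeR adjusted p = 0.0767), which were 0.41 and 0.33 without WT traction replicate 1.

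Among the genes for pyruvate and lactate, the lactate exporter rose and the enzymes did not pass the test. Slc16a3 (MCT4, chr 11, 120948480 to 120960868, plus strand), the monocarboxylate transporter of glycolytic cells, was at 24.4, 11.2 and 19.7 CPM in WT sham and at 278, 70.5 and 94.1 CPM in WT traction. The 9 scars of the other groups all lay between 11.2 and 27.8 CPM, well below the lowest WT traction scar. The log2 fold change was 3.00 ± 0.52 (SE, n = 3 a group, edgeR adjusted p = 0.0252), the smallest adjusted p of the 37 genes together with Pgam1. Without WT traction replicate 1 it was 2.14 ± 0.34 (edgeR adjusted p = 0.0350).

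Slc16a1 (MCT1), which carries lactate in either direction, was at 54.9 ± 4.71 CPM (SD, n = 3) in WT sham and 106 ± 57.1 CPM in WT traction (log2 fold change 0.94, edgeR adjusted p = 0.0716, and 0.39 without WT traction replicate 1). Per kilobase of exon, Slc16a3 made up 27.3%, 15.5% and 21.5% of this transporter pair in WT sham and 57.5%, 42.1% and 54.6% in WT traction. In the lacZ scars the share was 18.9% to 22.6% in sham and 17.0% to 22.1% in traction, so only the WT traction scars lay above 27.3%. This held for each of the 3 WT traction scars.

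Ldha, the lactate-forming dehydrogenase and a textbook HIF target, was at 646, 496 and 576 CPM in WT sham and at 1374, 588 and 652 CPM in WT traction. Replicates 2 and 3 of WT traction lay near the sham scars. For Ldha the log2 fold change was 0.61 ± 0.35 (SE, n = 3 a group, edgeR adjusted p = 0.253), and 0.10 without WT traction replicate 1. Pdk1, a HIF target that limits the use of pyruvate within mitochondria, was at 66.6 to 97.1 CPM in WT sham and 78.4 to 90.4 CPM in WT traction. Its log2 fold change was 0.06 ± 0.17 (SE, n = 3 a group, edgeR adjusted p = 0.852).

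**Figure D3:**
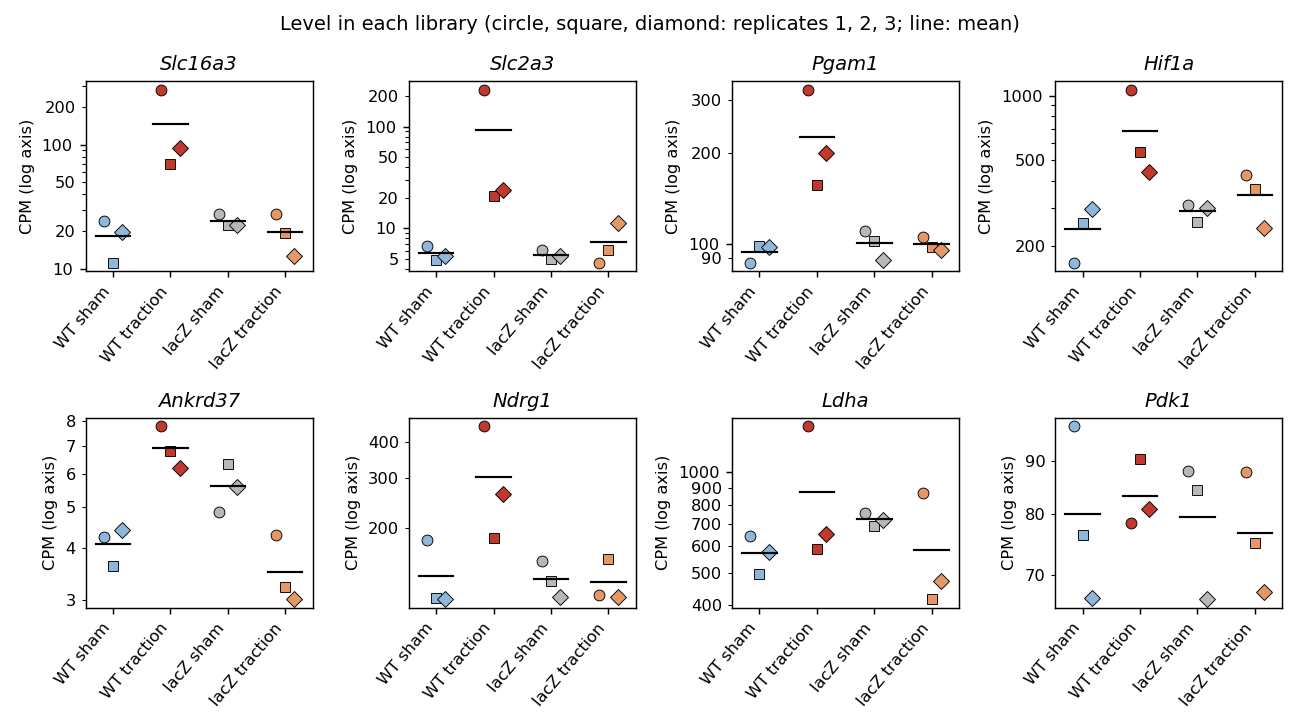
Levels of 8 genes in CPM on log axes, with circles, squares and diamonds for replicates 1, 2 and 3 and a line for the group mean. In the WT traction group Slc16a3, Slc2a3 and Pgam1 lie above all other scars in each replicate, Ankrd37 lies apart from WT sham upwards and, in lacZ scars, traction lies below sham, while Ldha and Pdk1 overlap between WT sham and WT traction.

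The prolyl hydroxylases, which are themselves HIF targets and tag the alpha subunits, did not pass the test with traction in WT scars. Egln3 was at 223, 130 and 120 CPM in WT sham and at 336, 114 and 140 CPM in WT traction, and the groups overlapped. Its log2 fold change was 0.32 ± 0.46 (SE, n = 3 a group, edgeR adjusted p = 0.668), and -0.33 (edgeR adjusted p = 0.613) without WT traction replicate 1. Egln1 was at 71.6 to 90.6 CPM in WT sham and 97.9 to 117 CPM in WT traction (log2 fold change 0.41, edgeR adjusted p = 0.130). The mitochondrial HIF targets Bnip3 and Bnip3l, which direct mitochondria to autophagy, had log2 fold changes of 0.87 and -0.08, and that of Higd1a was 0.24, with edgeR adjusted p between 0.150 and 0.801. These were 0.43, -0.28 and 0.13 without WT traction replicate 1.

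Ndrg1, Ddit4 and Ankrd37 rose among the 7 other HIF targets. Ndrg1, a gene of stressed and differentiating epithelium, was at 182, 114 and 113 CPM in WT sham and at 455, 185 and 265 CPM in WT traction, the lowest traction scar being close to the highest sham scar. Its log2 fold change was 1.14 ± 0.31 (SE, n = 3 a group, edgeR adjusted p = 0.0468), and 0.70 (edgeR adjusted p = 0.121) without WT traction replicate 1. Ddit4, an inhibitor of mTORC1 signaling, was at 60.7, 59.1 and 45.9 CPM in WT sham and at 125, 86.8 and 133 CPM in WT traction. Unlike most of the set it was highest in replicate 3 of WT traction. Ddit4 rose by a log2 fold change of 1.06 ± 0.22 (SE, n = 3 a group, edgeR adjusted p = 0.0305), and the value was 0.97 (edgeR adjusted p = 0.0528) without WT traction replicate 1.

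Ankrd37 (chr 8, 45996902 to 46005707, minus strand), a low-level HIF target with ankyrin repeats, was at 4.23, 3.61 and 4.41 CPM in WT sham and at 7.78, 6.80 and 6.18 CPM in WT traction. The 3 WT traction scars were close to each other and above WT sham. Ankrd37 rose by a log2 fold change of 0.76 ± 0.21 (SE, n = 3 a group, edgeR adjusted p = 0.0486), and the value was 0.65 (edgeR adjusted p = 0.109) without WT traction replicate 1. The gene shares 349 exon bases with Lrp2bp on the other strand, so its counts are uncertain if strand was not used. Adm (adrenomedullin, a vasodilating peptide) had a log2 fold change of 1.59 (edgeR adjusted p = 0.0840), Car9 (a pH-regulating carbonic anhydrase) 1.04, Mxi1 (a MYC antagonist) 0.40 and Kdm3a (a histone demethylase) 0.00, and none of these passed the test. Car9, Mxi1 and Kdm3a were at 0.85, 0.20 and -0.24 without WT traction replicate 1.

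Traction in lacZ scars moved none of the 37 genes past the test, and most estimated changes were downwards. The largest in size were rises of Adm (log2 fold change 1.61, against 1.59 in WT scars) and Epas1 (1.03, against 1.75). With edgeR 0 genes were called at an adjusted p of 0.05, as for all genes tested (0%), and the smallest adjusted p of the set was 0.598. At an unadjusted p under 0.05, 3 of the 37 genes were found, with Epas1 (1.03) and Adm (1.61) higher and Ankrd37 (-0.68) lower, where 8.12% of all genes tested had such a p (5.66% higher and 2.46% lower). DESeq2 also called 0 of the 37 genes, and limma-voom with sample weights called 2 (Epas1 and Ankrd37, where it called 2.31% of all genes). The median log2 fold change was -0.18, against -0.01 over all genes, with 12 genes estimated higher, where 48.5% of all genes were, and 25 lower. In 3 genes (Aldoa, Ankrd37 and Kdm3a) every lacZ traction scar lay below every lacZ sham scar, and in none did every one lie above, where 6.16% and 6.77% of all genes tested did so.

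**Figure D4:**
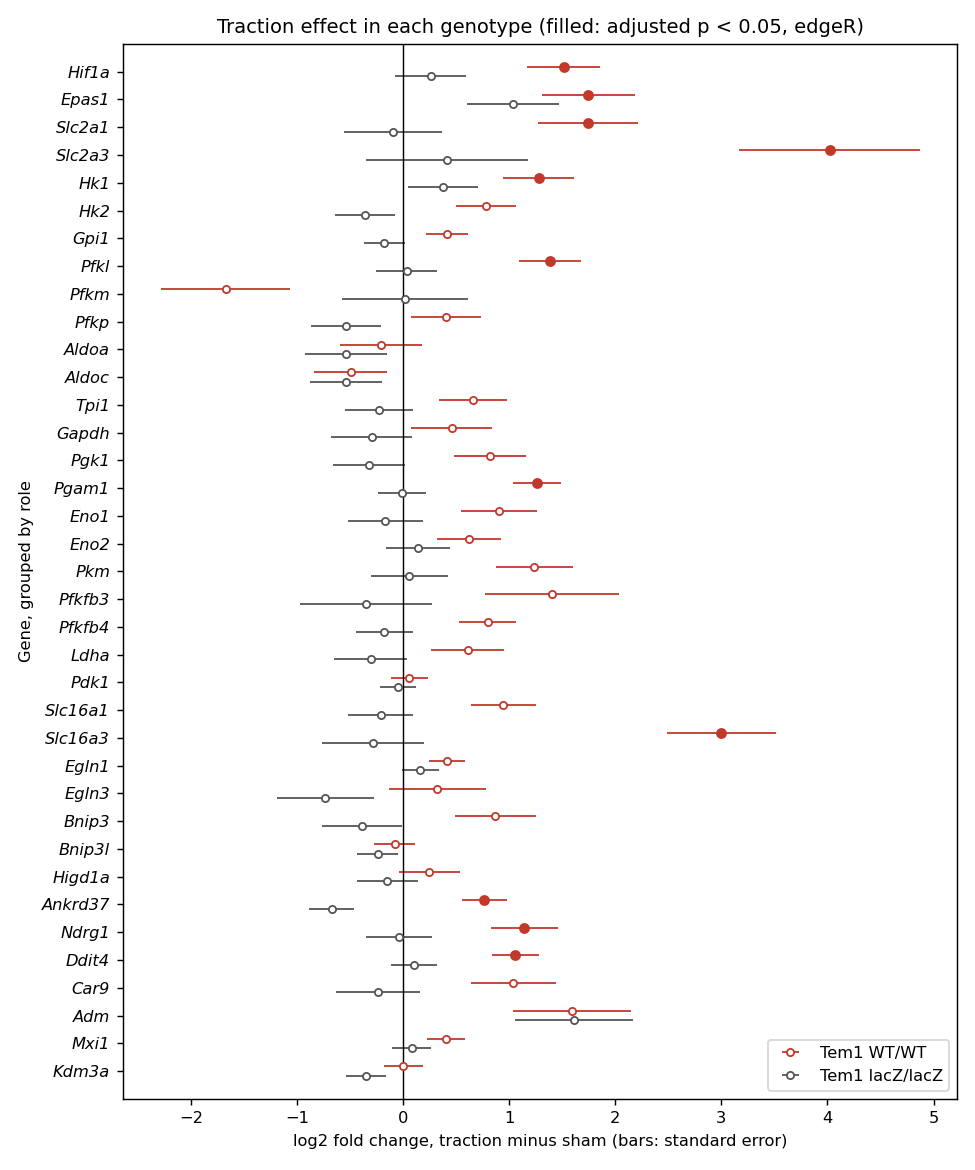
The log2 fold change of traction minus sham is given for each of the 37 genes in Tem1WT/WT scars (red) and Tem1lacZ/lacZ scars (grey), with bars for the standard error and filled points for an edgeR adjusted p under 0.05. The filled points are the 11 genes that rose in WT scars, and none is filled for lacZ scars.

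The genes that rose in WT scars had these values in lacZ scars. Slc16a3 was at 27.6, 22.5 and 22.7 CPM in lacZ sham and at 27.8, 19.4 and 12.7 CPM in lacZ traction. Pgam1 was at 111, 103 and 89.1 CPM in lacZ sham and at 106, 97.8 and 95.9 CPM in lacZ traction. Both genes overlapped between lacZ sham and lacZ traction, and their log2 fold changes were -0.28 ± 0.48 and -0.01 ± 0.22 (SE, n = 3 a group). The other values were 0.26 for Hif1a, 1.03 for Epas1, -0.10 for Slc2a1, 0.41 for Slc2a3, 0.37 for Hk1, 0.03 for Pfkl, -0.04 for Ndrg1, 0.10 for Ddit4 and -0.68 for Ankrd37 on the log2 scale.

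Adm and Epas1 had the largest estimated rises in lacZ scars, and lacZ traction replicate 1 differed from the rest in both. Adm was at 10.8, 6.26 and 8.56 CPM in lacZ sham and at 6.06, 44.1 and 28.1 CPM in lacZ traction. Epas1 was at 88.2, 44.4 and 58.0 CPM in lacZ sham and at 68.5, 174 and 147 CPM in lacZ traction. Replicate 1 lay within or below the sham range, and replicates 2 and 3 lay above it. Summed endothelial markers were at 379 to 607 CPM in lacZ sham and at 561, 968 and 975 CPM in lacZ traction replicates 1 to 3, and their part was not tested. In contrast, replicate 1 was the highest of the lacZ traction scars for Ldha (867, 416 and 470 CPM), Pgk1 (636, 282 and 277 CPM), Eno1 (1422, 551 and 635 CPM) and Tpi1 (579, 300 and 320 CPM). Epidermal keratinocyte markers were also highest there, at a summed 46582 CPM over 13 markers against 15110 to 23211 CPM in the other 11 scars, and their part in these values was not tested. Without lacZ traction replicate 1, Adm was the only one of the 37 genes that passed the test in lacZ scars, where 0.376% of all genes passed.

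Between genotypes, with traction, the glycolysis and hypoxia genes were estimated lower in lacZ scars than in WT scars for 33 of the 37 members, but none passed the test. This comparison shares its WT traction libraries with the comparison above. The edgeR count was 0 of 37, where 0.106% of all genes tested passed, and the median log2 fold change was -0.64, against 0.01 over all genes, of which 51% were estimated higher. At an unadjusted p under 0.05, 20 genes were found, all lower, where 26.1% of all genes tested had such a p, 15.1% as lower. In 15 genes every lacZ traction scar lay below every WT traction scar (13.7% of all genes tested), and in none did every one lie above. DESeq2 called 13 of the 37 genes, all lower, where it called 12.4% of all genes, and edgeR called 10 of the 37 genes without WT traction replicate 2, where 7.32% of all genes passed.

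The smallest edgeR adjusted p belonged to Ddit4. Its levels were 125, 86.8 and 133 CPM in WT traction and 52.6, 40.0 and 40.3 CPM in lacZ traction. The groups did not overlap, and the log2 fold change was -1.38 ± 0.22 (SE, n = 3 a group, edgeR adjusted p = 0.0523). It was -1.28 without WT traction replicate 1 (edgeR adjusted p = 0.115). Slc16a3 had a log2 fold change of -2.89 ± 0.51 (SE, n = 3 a group, edgeR adjusted p = 0.0766), and -2.02 without WT traction replicate 1 (edgeR adjusted p = 0.0814). The values were -3.65 for Slc2a3, -1.50 for Slc2a1, -1.28 for Hk2, -1.22 for Ndrg1, -1.21 for Hk1, -1.18 for both Pfkl and Pgam1, -1.15 for Epas1 and -0.98 for both Hif1a and Ankrd37, with edgeR adjusted p from 0.0829 to 0.137. Pfkfb3 had a value of -1.996 (edgeR adjusted p = 0.108), with no overlap of the groups. Most of these rested in part on WT traction replicate 1. Without it they were -1.56 for Slc2a3, -0.98 for Pfkfb3, -0.68 for Slc2a1, -0.81 for Hk2, -0.76 for Ndrg1, -0.55 for Hk1, -0.72 for Pfkl, -0.80 for Pgam1, -0.52 for Epas1, -0.48 for Hif1a and -0.86 for Ankrd37.

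In sham scars the genotypes did not differ by the test. With edgeR 0 of the 37 genes passed, where 0.0106% of all genes tested passed, and DESeq2 also called 0. At an unadjusted p under 0.05, Higd1a (0.73) was higher and Pfkm (-1.46) was lower in lacZ sham scars, where 11.7% of all genes tested had such a p (5.03% higher and 6.62% lower). The groups overlapped for Pfkm, at 328, 93.6 and 40.5 CPM in WT sham and 59.6, 36.3 and 71.8 CPM in lacZ sham. Over the 37 genes the median log2 fold change was 0.16, against -0.01 over all genes, and 22 were estimated higher, where 48.6% of all genes were. In 8 genes every lacZ sham scar lay above every WT sham scar, among them Pgk1 (491 to 505 against 305 to 383 CPM), Eno1 (920 to 1030 against 566 to 766 CPM), Ldha (693 to 757 against 496 to 646 CPM) and Higd1a (69.9 to 84.7 against 40.3 to 51.2 CPM). In Hk1 every lacZ sham scar lay below every WT sham scar (53.7 to 64.2 against 70.2 to 72.8 CPM). Of all genes tested, 13% lay wholly above and 13.8% wholly below in this way.

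Whether traction acted differently in the genotypes was asked with the interaction term, which is the traction effect in lacZ minus that in WT scars. It was negative for 35 of the 37 genes and positive for 2 (Pfkm and Adm), where 49.8% of all genes were positive, with a median of -0.96 on the log2 scale, where the median of all genes lay near 0. With edgeR none passed (0% of all genes tested), and the smallest adjusted p was 0.548. At an unadjusted p under 0.05, 16 genes were found, all negative, where 8.91% of all genes tested had such a p, 4.46% as negative. The values of largest size were -3.61 ± 1.11 for Slc2a3, -3.28 ± 0.70 for Slc16a3 and -1.84 ± 0.66 for Slc2a1 (SE, n = 3 a group). They were -1.50, -2.40 and -1.003 without WT traction replicate 1, and Slc16a3 and Pfkm (2.104) were then the largest in size. The Pfkm value includes WT sham replicate 1, at 328 CPM against 93.6 and 40.5 CPM in WT sham replicates 2 and 3. DESeq2 called 2 of the 37 genes, Slc16a3 (adjusted p = 0.00396) and Ankrd37 (adjusted p = 0.00184), where it called 0.366% of all genes. It gave no p for Slc2a3.

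Without WT traction replicate 1 the set still leaned the same way, with smaller values. For traction in WT scars the median log2 fold change was 0.41, with 29 genes higher and 8 lower. Between genotypes with traction it was -0.25, with 31 genes lower, and the median interaction was -0.48, with 32 genes negative. Over all genes the corresponding medians were -0.05, 0.07 and 0.06. Slc16a3, Slc2a3 and Pgam1 passed in WT scars without this library, and Pfkl (edgeR adjusted p = 0.0504), Ddit4 (0.0528) and Hif1a (0.0619) were closest to the threshold.

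**Figure D5:**
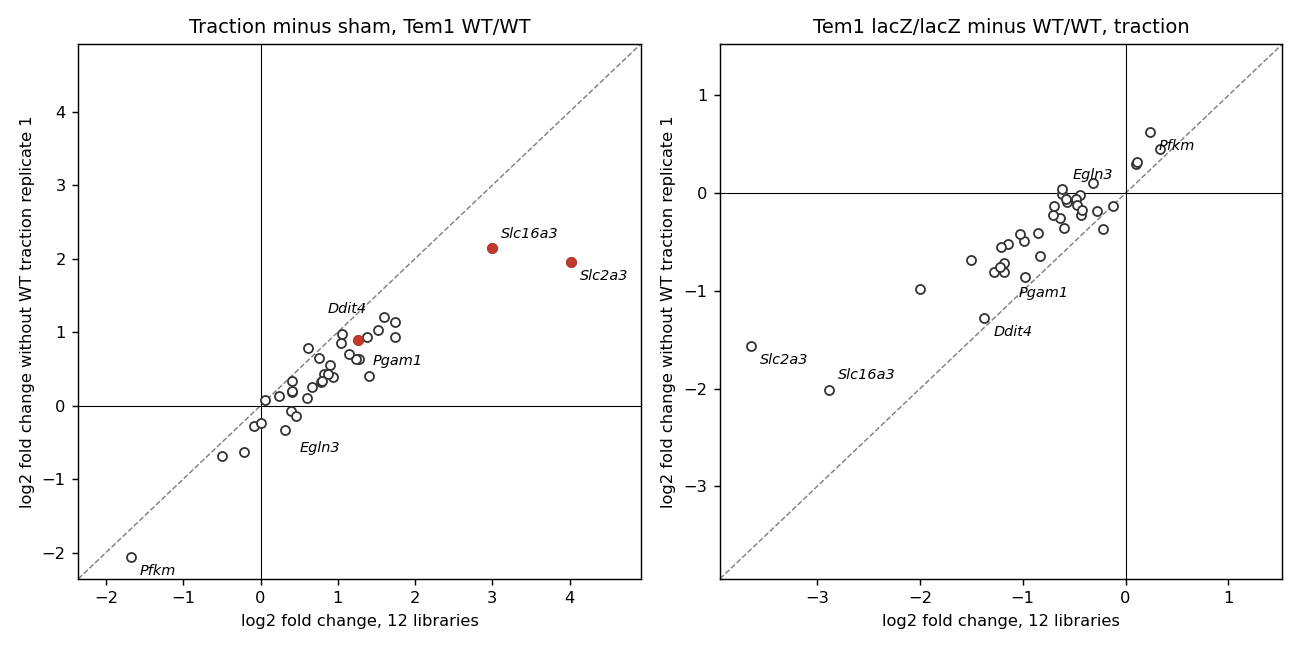
Each point is a gene, with its log2 fold change in 12 libraries on the horizontal axis and without WT traction replicate 1 on the vertical axis. The dashed line marks equal values, and filled points passed an edgeR adjusted p of 0.05 without that replicate. On the left (traction minus sham in WT scars) most points lie below the line, with Slc2a3, Slc16a3 and Pgam1 filled, and on the right (lacZ minus WT with traction) most lie above it.

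Other genes of the pathways were read from lists that surround the 37 genes. Of 41 further HIF targets, 11 rose and 3 fell with traction in WT scars, with a median log2 fold change of 0.45. Of all genes tested, 5.61% rose and 3.54% fell. When WT traction replicate 1 was left out, 7 of these targets rose and none fell, where 1.86% of all genes passed, and their median was 0.31. Among those that rose were Nos2 (inducible nitric oxide synthase, 6.51), Rab20 (2.68) and Hmox1 (heme oxygenase, 2.20). Without that library Nos2 (5.25) and Hmox1 (2.18) passed and Rab20 (0.97, edgeR adjusted p = 0.0717) did not. The collagen-modifying enzymes P4ha1, P4ha2, Plod1 and Plod2 and the crosslinking enzyme Lox were also among the 11, and are named here after their values were seen. P4ha1, a collagen prolyl hydroxylase, did not follow WT traction replicate 1. It was at 116, 102 and 125 CPM in WT sham, 240, 231 and 254 CPM in WT traction, and 106, 126 and 93.4 CPM in lacZ traction. The traction scars of the WT group lay together and apart from both others. Between genotypes with traction 0.106% of all genes tested passed. P4ha1 and Nos2 were also the only genes of this list that passed there, at log2 fold changes of -1.15 ± 0.17 (edgeR adjusted p = 0.0335) and -6.28 ± 0.77 (edgeR adjusted p = 0.0136) (SE, n = 3 a group). The values were -1.12 (edgeR adjusted p = 0.0809) and -5.01 (edgeR adjusted p = 0.00197) without WT traction replicate 1.

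Among 19 oxygen-sensing and partner genes, 2 rose with traction in WT scars. Of all genes tested, 5.61% rose and 3.54% fell in this comparison. The 2 that rose were Arnt, the partner of the alpha subunits (0.71, edgeR adjusted p = 0.0399), and Vhl, which marks them for destruction (0.68, edgeR adjusted p = 0.0349). Of 17 tested glycolytic isozymes outside the set, 3 fell, namely Ldhb (the dehydrogenase form that favours pyruvate, -1.40), Slc16a7 (the MCT2 transporter, -1.78) and Pfkfb2 (-0.77). None of 14 genes for pyruvate entry into mitochondria and its use there passed the test, and the median of this list was -0.40. The list mixes carriers and enzymes, and both inhibitors and activators of pyruvate dehydrogenase. Of 8 tested pentose phosphate genes H6pd rose (1.49), and of 5 tested gluconeogenesis genes Pck2 rose (1.32) and Fbp2, a muscle form, fell (-3.33). Without WT traction replicate 1, Pck2 (1.39) passed among the genes named in this paragraph, while Arnt (0.57), Vhl (0.61), Ldhb (-1.44), Slc16a7 (-1.58), Pfkfb2 (-0.63), H6pd (1.11) and Fbp2 (-3.73) had edgeR adjusted p from 0.0543 to 0.108. In lacZ scars no gene of these lists passed the test with traction.

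The genes outside the set whose levels over the 12 libraries were most like its mean were Rdh10 (Pearson r = 0.97), Ier3 (0.97), Map2k1 (0.96), Mirt1 (0.96) and Orai1 (0.96), among 14881 genes compared. Within the set, r with the mean of the set, each gene included, was highest for Slc2a1 (0.97), Pfkl (0.97) and Slc16a3 (0.95), and was lowest for Aldoc (-0.04), Pfkm (0.03), Bnip3l (0.07) and Higd1a (0.12). The 12 libraries share WT traction replicate 1, which was the highest in 29 of the genes, so these r describe the libraries at hand.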

How the data were processed

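The authors deposited gene counts for each of 12 TruSeq Stranded mRNA libraries. The submitters' processing notes name fastp 0.20.0, HISAT2 2.1.0, featureCounts 2.0.0 and the GRCm38 build. The annotation, strand setting and handling of reads that match several places were not given in the sources used here. Exon overlaps are not limited to Hif1a and Ankrd37. Ndrg1 (419 and 137 bases), Hk1 (157) and Slc2a1 (105) overlap genes on the other strand. Pkm (767) and Pfkm (341) overlap genes on their own strand, and further members overlap other genes too. The 37 genes and all other lists were chosen with earlier results of these data known. Counts were filtered by edgeR's filterByExpr and scaled by TMM, and 1 quasi-likelihood model of 4 groups (robust, 8 residual degrees of freedom) was fitted in edgeR 4.0.16 under R 4.3.3. Adjusted p were Benjamini-Hochberg values over 18853 genes in each of 5 comparisons, with a threshold of 0.05. CPM used TMM-scaled library sizes. The p-values are two-sided and measure the spread between scars, and the labels do not say more on how the scars of a group are related. Levels per kilobase used exon lengths of the GENCODE annotation of GRCm38. Alternatives used DESeq2 1.42.0, limma 3.58.1, other scalings and filters, a replicate block and omission of each library. Figures were drawn with matplotlib 3.10.9 under Python 3.11.15. The scripts for tests were checked on simulated counts. Values in every library are given for genes that passed a test, the HIF subunits, Egln3, Slc2a1, Ldha and Pgk1, and the genes of largest change (5 for traction in WT scars, 3 for the interaction). From each other list at most the 4 largest that passed are named, except for a result that is not reported here, and further genes were named after their values were seen.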

Additional observations from a re-analysis of the deposited data

Results flagged for a closer look

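Ankrd37 stood out because its groups moved in opposite directions with traction. All 3 WT traction scars lay above all 3 WT sham scars (6.18 to 7.78 against 3.61 to 4.41 CPM), whereas all 3 lacZ traction scars lay below all 3 lacZ sham scars (3.02 to 4.29 against 4.88 to 6.34 CPM). The difference itself was tested with the interaction term, which was -1.44 ± 0.30 on the log2 scale (SE, 3 scars in each group). Its edgeR p was 0.000556 before adjustment and 0.548 after it. Over 18 alternatives the value lay between -1.56 and -1.30 and the adjusted p between 0.00184 (DESeq2) and 0.825, and DESeq2 was the only alternative in which it passed. The gene is at a low level and overlaps Lrp2bp on the other strand.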

How the results depend on the processing

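The count of genes that passed with traction in WT scars (11, all higher) was 11 with DESeq2 size factors, 8 with upper quartile scaling or limma-voom, 16 with DESeq2 (15 higher and Pfkm lower), 5 when all genes with at least 1 count were tested (3.54% of all genes), and 0 when only the 6 libraries compared were fitted (0%). Upper quartile scaling moved the median of all genes for this comparison from -0.01 to -0.12 and that of the 37 genes to 0.67. Omitting 1 library gave 0 to 14, and the median log2 fold change was then 0.41 to 0.96. In lacZ scars limma-voom with sample weights called 2 genes, and omitting 1 library gave 0 to 1. Between genotypes with traction, DESeq2 size factors gave 1 gene (0.138% of all genes), all genes with at least 1 count 1 (0.0595%, Ddit4 in both), DESeq2 13 (12.4%), and omitting 1 library 0 to 10, with a median of -0.94 to -0.25. For the interaction DESeq2 called 2 genes, and omitting 1 library gave a median of -1.15 to -0.48. With the replicate number as a block, 9 genes passed for traction in WT scars (7.78% of all genes) and 1 (Slc16a3) between genotypes with traction (0.0796%). The labels do not say whether the numbers pair the scars, and with 3 scars a group the values cannot decide it. Deviations from the group mean correlated at -0.32 to 0.25 (median 0.09) over 18 pairs of same-numbered scars. Over 36 pairs of other numbers they correlated at -0.40 to 0.37 (median -0.02). Without WT traction replicate 1, 4 of the 37 genes changed direction for traction in WT scars (Pfkp, Gapdh, Egln3 and Kdm3a), 1 for traction in lacZ scars (Pgam1), 2 between genotypes with traction (Egln3 and Adm) and 3 for the interaction (Aldoa, Aldoc and Bnip3l), and none of these values passed the test. Egln3 went to -0.33 for traction in WT scars (range over omitted libraries -0.33 to 0.65) and to 0.039 between genotypes with traction (range -0.95 to 0.039). Of 642 values under the alternatives for 15 genes followed one by one and not for all 37, 517 kept direction and side of the threshold, 98 lost it, 25 gained it and 2 (Egln3) changed direction. Only the 11 genes that passed for traction in WT scars could lose the threshold. Of 19 alternatives, Pgam1 and Slc16a3 passed in 16, Hif1a in 14, Pfkl in 13, and Slc2a3 and Ddit4 in 12. DESeq2 gave no p for Slc2a3, which was counted there as not passing. Epas1 passed in 9, Hk1 in 6, Slc2a1 in 5, and Ndrg1 and Ankrd37 in 4. The causes of these changes were not tested, except that omitting a library also leaves fewer samples. Each group held 3 scars, and the parts of depth and of the spread between scars in the precision were not tested.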

Other observations

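Summed levels of other marker lists are given here for WT scars with and without traction. For red cell and hair follicle markers the lacZ scars are given too. The summed red cell markers were at 116 to 136 CPM in WT sham, 235 to 287 CPM in WT traction, 148 to 160 CPM in lacZ sham and 113 to 174 CPM in lacZ traction. The summed hair follicle markers were at 16195 to 29876 CPM in WT sham and 4337 to 7924 CPM in WT traction, with no overlap. In lacZ scars they were at 4159 to 22916 CPM in sham, which reached below WT traction, and at 8336 to 14775 CPM in traction. The summed fibroblast markers were at 30154 to 50636 CPM in WT sham and 48178 to 125330 CPM in WT traction, and overlapped. The summed adipocyte markers were at 1686 to 2105 CPM in WT sham and 380 to 1576 CPM in WT traction, with no overlap, and none of the 12 passed the test (edgeR, and 0 at an unadjusted p under 0.05). The summed macrophage markers were at 2974 to 4834 CPM in WT sham and 4793 to 6502 CPM in WT traction, which overlapped. Of the 15 macrophage markers 2 rose, where 5.61% of all genes tested did so. The part of these marker lists in the levels of the 37 genes was not tested.

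Per kilobase of exon, Aldoa, the muscle-type aldolase, was the most abundant of the 37 genes in WT sham scars by its mean (295 ± 167 CPM per kb, SD, n = 3), which was carried by replicate 1 at 486, against 217 and 181 in replicates 2 and 3. Averaged over all 12 libraries, Pkm was first at 276 CPM per kb, followed by Aldoa at 252 and Pgk1 at 208.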
